A study of Mus musculus with 6 samples.

Results

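The expression of 10 genes of the epithelial-mesenchymal transition (EMT) was examined in RPE-choroid, the retinal pigment epithelium (RPE) with the vascular choroid under it, from control mice and from mice with subretinal fibrosis (SRF). The genes were fixed by symbol and matched to the Ensembl identifiers of the count tables, and all 10 were found among the 15663 genes listed. They fall into 3 epithelial genes (Cdh1, Krt8 and Krt18), 2 mesenchymal genes (Cdh2 and Vim) and 5 transcription factors of the transition (Snai1, Snai2, Twist1, Zeb1 and Zeb2). Each group held 3 libraries, each from 1 mouse. All animals are labelled C57BL/6, and the study describes them as male C57BL/6J mice of 8 to 10 weeks. Control mice were healthy and untreated. SRF mice received the two-stage laser treatment, with 4 burns in each eye and a second burn on each lesion 10 days later, and RNA was taken 20 days after that second burn. The labels name the RPE-choroid as the tissue and no dissection of lesions, so a library can hold RNA of the lesions and of the tissue around them.

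In EMT, epithelial cells lose the junctions and keratin filaments that hold them in a sheet and take up the shape, adhesion and movement of mesenchymal cells. E-cadherin (Cdh1) is the junction protein classically lost, and N-cadherin (Cdh2) the one gained. Krt8 and Krt18 encode a type II and a type I keratin that pair into the filaments of simple epithelia, and Vim encodes vimentin, the intermediate filament protein of mesenchymal cells. Snai1 and Snai2 are zinc finger repressors, Zeb1 and Zeb2 are zinc finger homeobox repressors, and Twist1 is a basic helix-loop-helix factor. These factors bind short DNA elements called E-boxes, among them those of epithelial genes. RPE cells can enter this transition after injury and are regarded as one source of the myofibroblasts of scars under the retina.

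The E-box bound by the Snail and Zeb repressors, CAGGTG or CACCTG on the other strand, was searched in RefSeq promoter windows of build GRCm38.p6, from 250 to 51 bases before the annotated start. The windows of Snai1, Krt18, Vim, Twist1 and Zeb2 are described. Cdh1, Cdh2, Snai2 and Zeb1 had no window in the set used and were not searched. The element was found in those of Snai1 and Krt18 and not in those of Vim, Twist1 or Zeb2. The RefSeq start of Vim lies 384 bases inside its GENCODE gene, so its window is within the gene. Zeb2 has several RefSeq starts, and those 4116, 4142 and 7118 bases inside its GENCODE gene also have windows within the gene. It was present in 14.4% of all 32851 windows of the same length, and the wider E-box CANNTG, which includes it, in 59.0%. The windows of Snai1 and Krt18 are shown because Snai1 encodes a repressor that acts in the transition and Krt18 an epithelial keratin. Capitals mark the E-boxes, and each sequence runs from 5′ to 3′ on the strand of its gene.
Snai1 (chr2:167537945-167538144, forward strand): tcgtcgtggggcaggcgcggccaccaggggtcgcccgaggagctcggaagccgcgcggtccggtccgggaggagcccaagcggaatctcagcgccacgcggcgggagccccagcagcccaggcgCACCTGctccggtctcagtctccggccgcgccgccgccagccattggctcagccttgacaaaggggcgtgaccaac
Krt18 (chr15:102027966-102028165, forward strand): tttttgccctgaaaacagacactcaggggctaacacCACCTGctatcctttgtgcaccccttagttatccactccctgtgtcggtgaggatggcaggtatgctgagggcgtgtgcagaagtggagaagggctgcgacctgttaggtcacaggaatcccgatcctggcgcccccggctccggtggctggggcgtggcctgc
The element lies 126 to 121 bases before the start in Snai1 and 214 to 209 in Krt18. A match of letters is a description and does not show that a factor is bound. In these libraries the level of Snai1 was higher in SRF mice than in control mice, and the levels of Krt18 overlapped between the groups, as given next.

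Snai1 was the one EMT gene whose values did not overlap between the groups. It encodes the Snail repressor, whose best known target is Cdh1. Its normalized count (CPM, the count scaled to the TMM library size) was 8.34, 10.4 and 10.3 in control mice 1, 2 and 3 and 14.8, 24.5 and 16.1 in SRF mice 1, 2 and 3. Every SRF mouse was above every control mouse, and SRF mouse 2 stood highest. Control mice averaged 9.68 ± 1.16 CPM and SRF mice 18.5 ± 5.27 CPM (each with SD, n = 3). On the log2 scale the difference was 0.93 with a standard error of 0.24. The quasi-likelihood test of edgeR gave an unadjusted p-value of 0.00569, and its value after Benjamini-Hochberg adjustment over all 13454 tested genes was 0.407, so Snai1 was not called. The 95% interval of the fold from that fit ran from 1.29 to 2.80. The exact permutation test, two-sided, gave p = 0.1, which is the smallest value that 3 mice against 3 allow. DESeq2 gave an adjusted p-value of 0.0767 (Benjamini-Hochberg). Snai1 lies on chromosome 2 of GRCm38 from 167538195 to 167542814 on the forward strand, and no other annotated gene overlaps it.

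A gene was called when its adjusted p-value was under 0.05 and its log2 fold change was 0.5 or more in either direction. With edgeR's test 0 of the 10 genes were called, and 0.0% of all tested genes were (0 of 13454). At an unadjusted p-value under 0.05 edgeR had 1 of the 10 genes and 943 of all tested genes, which is 7.01%. With DESeq2 0 of the 10 were called, against 1.14% of all tested genes, 0.803% higher and 0.334% lower in SRF. The 1 gene was Snai1, higher in SRF, and 4.16% of all tested genes were higher and 2.85% lower at that p-value. Groups that did not overlap, with SRF higher, were found for 1 of the 10 genes and for 6.71% of all, and with SRF lower for 0 of the 10 and for 6.43% of all. A single gene of 10 stands near these background shares.

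**Figure D1:**
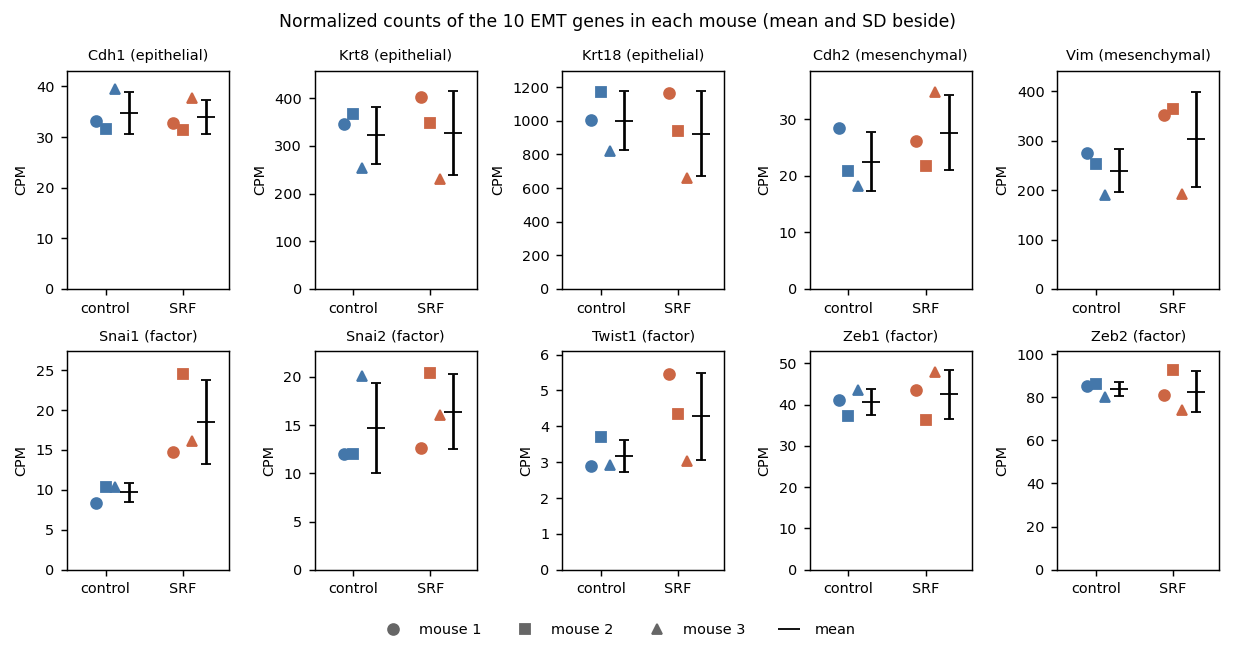
Normalized counts (CPM, linear axes from 0) of the 10 EMT genes in each mouse, with circles, squares and triangles for mice 1, 2 and 3 and bars for the mean and SD of 3 mice. Snai1 is the one gene whose control mice (8.34 to 10.4 CPM) and SRF mice (14.8 to 24.5 CPM) do not overlap.

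Among the epithelial genes no difference larger than the spread between mice was found. Cdh1 was at 33.1, 31.6 and 39.5 CPM in control mice 1, 2 and 3 and at 32.8, 31.4 and 37.6 CPM in SRF mice 1, 2 and 3. The groups overlapped almost fully, with the third mouse highest in each. The log2 fold change was -0.03 (standard error 0.14), and its 95% interval from the edgeR fit, -0.36 to 0.29, leaves room for a fold between 0.780 and 1.22. Krt18, the most abundant of the 10 genes, was at 1008, 1173 and 821 CPM in control mice and at 1166, 939.8 and 662 CPM in SRF mice. Its lowest and its second highest value were both from SRF mice. This was a log2 fold change of -0.12 (standard error 0.23, 95% interval -0.66 to 0.43). Krt8, its filament partner, was at 345, 366 and 254 CPM in control mice and at 401, 349 and 229.5 CPM in SRF mice. Both the highest and the lowest value of Krt8 came from SRF mice. This was a log2 fold change of 0.02 (standard error 0.24, 95% interval -0.54 to 0.58). Krt8 and Krt18 are neighbours on chromosome 15 of GRCm38, at 101996698 to 102004482 on the reverse strand and 102028180 to 102032027 on the forward strand.

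Both mesenchymal genes had a higher mean in SRF, with groups that overlapped. Vim was at 275, 253 and 190.1 CPM in control mice and at 352, 364 and 193 CPM in SRF mice. SRF mice 1 and 2 were above all control mice, and SRF mouse 3 was within the control range. Vim had a log2 fold change of 0.34 (standard error 0.27, 95% interval -0.29 to 0.97), and edgeR's p-value was 0.244 before and 0.938 after Benjamini-Hochberg adjustment. Cdh2 was at 28.4, 20.9 and 18.3 CPM in control mice and at 26.2, 21.8 and 34.8 CPM in SRF mice. In each group its highest value was in the library richest in photoreceptor RNA, control mouse 1 and SRF mouse 3. Cdh2 had a log2 fold change of 0.30 (standard error 0.23, 95% interval -0.25 to 0.85), and 0.29 without those 2 libraries. It was 0.50 without control mouse 1 alone and 0.11 without SRF mouse 3 alone. With the photoreceptor level as a covariate the log2 fold change of Cdh2 was 0.35 (edgeR, adjusted p = 0.569 with Benjamini-Hochberg adjustment). Cdh2 is also made by neural retina, and beyond these fits the part of retinal RNA in its level was not tested.

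Of the other transition factors, Twist1 had the highest log2 fold change. Twist1 was at 2.90, 3.69 and 2.92 CPM in control mice and at 5.46, 4.34 and 3.02 CPM in SRF mice. SRF mice 1 and 2 were above all control mice and SRF mouse 3 was among them, as for Vim. These values rest on few reads, with 39 to 101 counts per library, and the log2 fold change of 0.43 had a standard error of 0.33 (95% interval -0.35 to 1.21). Snai2, which encodes Slug, a close relative of Snail, was at 12.0, 12.0 and 20.1 CPM in control mice and at 12.7, 20.4 and 16.1 CPM in SRF mice. One mouse of each group was near 20 CPM, and the groups overlapped (log2 fold change 0.15, standard error 0.28). Zeb1 was at 41.0, 37.2 and 43.6 CPM in control mice and at 43.4, 36.1 and 47.8 CPM in SRF mice. Its values crossed between the groups, with a log2 fold change of 0.06 (standard error 0.14). Zeb2 was at 85.2, 86.1 and 80.1 CPM in control mice and at 81.2, 92.7 and 73.8 CPM in SRF mice. It was the factor with the narrowest interval, -0.30 to 0.26 on the log2 scale around -0.02. Zeb2, Zeb1, Krt8 and Cdh2 each overlap annotated genes on the opposite strand (Zeb2os among those of Zeb2), and the tables list none of these. The counting is not stated to use strand, so reads of such pairs cannot be told apart.

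**Figure D2:**
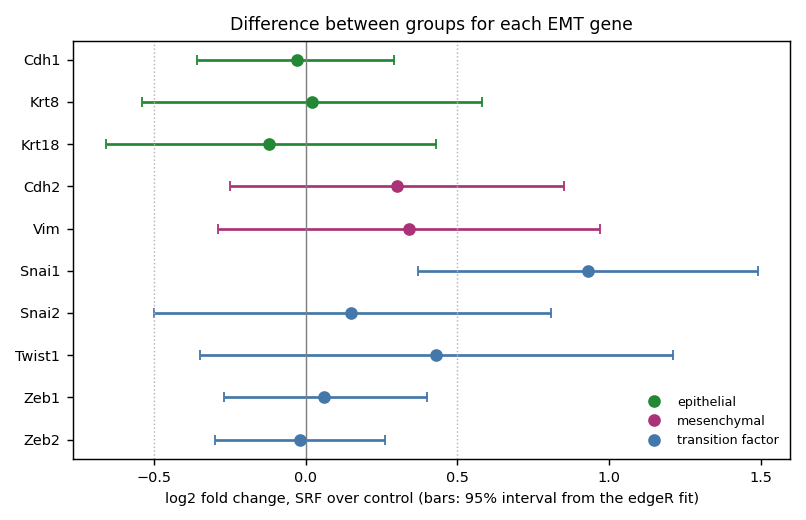
Log2 fold change of each EMT gene, SRF over control, with its 95% interval from the edgeR fit, coloured by class, and dotted lines at 0.5 either way. The interval of Snai1 (0.37 to 1.49) lies above 0, and those of the other 9 genes include 0.

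Set against each other, the 3 epithelial genes had a median log2 fold change of -0.03 and the 7 mesenchymal genes and factors one of 0.30. The median over all tested genes was 0.00, with quartiles of -0.13 and 0.16. The 2 mesenchymal genes had a median of 0.32 and the 5 factors one of 0.15. By sign, 6 of the 7 mesenchymal genes and factors were higher in SRF and 1 of the 3 epithelial genes was, against 50.3% of all tested genes. The epithelial median minus the median of the other 7 genes, on centred log2 CPM, was 0.11, 0.36 and 0.10 in control mice 1, 2 and 3 and 0.21, -0.26 and -0.55 in SRF mice 1, 2 and 3. SRF mouse 1 was within the control range, and SRF mice 2 and 3 were below it. The spread between mice was wider in SRF than in control for 8 of the 10 genes (coefficient of variation of the CPM), the exceptions being Cdh1 and Snai2. This was not counted over all tested genes, so the 8 are a description only. Cdh2 hardly differed, at 24.1% in SRF and 23.3% in control mice, and on FPKM at 23.5% and 23.7%. The coefficient of variation of Snai1 was 28.6% in SRF and 12.0% in control mice.

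Levels were compared between genes on the FPKM scale, which divides by transcript length. Krt18 was highest, then Krt8, Vim and Zeb2, in the same order in all 6 libraries, and Twist1 was lowest in all 6. Krt18 was at 683 ± 117 FPKM (SD, n = 3) in control mice and 652 ± 179 FPKM (SD, n = 3) in SRF mice, and its control mean was above those of 99.6% of the listed genes. Krt8 was at 161 ± 29.1 and 169 ± 46.0 FPKM, and Vim at 107 ± 19.6 and 140.4 ± 45.1 FPKM. In SRF mice the ranges of Krt8 (118 to 207 FPKM) and Vim (88.5 to 170.2 FPKM) overlapped, while in control mice they did not. The other 5 genes lay close together. In control mice they ran from Zeb1 at 9.18 ± 0.826 FPKM through Cdh1 (7.75 ± 0.992), Snai2 (7.14 ± 2.28) and Snai1 (5.86 ± 0.699) to Cdh2 (5.54 ± 1.31), and the range of each overlapped that of the next in this order. Snai1 (5.05 to 6.28 FPKM) lay below Cdh1 (7.02 to 8.88) and Zeb1 (8.23 to 9.75) without overlap. In SRF mice Snai1, at 11.6 ± 3.40 FPKM, had the highest mean of these 5, in place 5 of 10 against place 8 in control mice, and its range of 9.22 to 15.5 FPKM overlapped that of Zeb1 (8.91 to 11.6).

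The cadherin switch was looked at as the ratio of Cdh2 to Cdh1 FPKM within each library. The ratio was 0.958, 0.709 and 0.518 in control mice 1, 2 and 3 and 0.906, 0.755 and 1.02 in SRF mice 1, 2 and 3. The groups overlapped, and the 2 highest ratios belonged to the 2 libraries richest in photoreceptor RNA. The ratio of the intermediate filament genes Vim and Krt18, which was added to the planned ratios, was 0.179, 0.142 and 0.152 in control mice and 0.198, 0.254 and 0.191 in SRF mice. Every SRF library was above every control library. Between the keratin partners, the ratio of Krt18 to Krt8 stayed between 3.67 and 4.40 in all 6 libraries, at 3.98, 4.37 and 4.40 in control mice and 3.96, 3.67 and 3.93 in SRF mice. These ranges did not overlap either, although the nearest mice differed by little. The ratio of the paralogues Snai1 and Snai2 was also not among the planned ratios. It was 0.866, 1.07 and 0.643 in control mice and 1.45, 1.49 and 1.25 in SRF mice. Over all 45 pairs of the 10 genes, 10 ratios did not overlap between the groups, and 5 of these involved Snai1. Of all pairs of tested genes, 12.4% had a ratio that did not overlap. Among the 36 pairs without Snai1 there were 5 such ratios. The ratios are descriptions of these libraries, and no test was made on them.

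**Figure D3:**
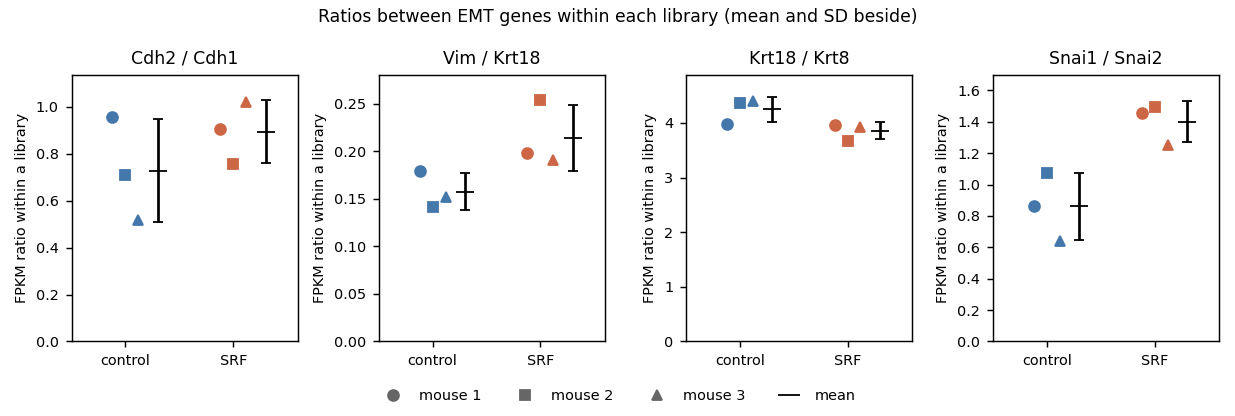
Ratios of FPKM between 2 EMT genes within each library (linear axes from 0), by group, with the mean and SD of 3 mice beside. Cdh2 to Cdh1 overlaps between the groups, and Snai1 to Snai2 runs from 0.643 to 1.07 in control and from 1.25 to 1.49 in SRF mice.

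Count and FPKM of a gene together give the transcript length that the authors' FPKM used. For Krt18 this was 1437 or 1438 nt in every library and for Snai1 1621 to 1623 nt, near the 1437 and 1621 nt of their longest GENCODE transcripts. For Zeb2, whose longest annotated transcript has 9124 nt, it was 5521, 5008 and 5618 nt in control mice and 4739, 4963 and 4669 nt in SRF mice. The implied length of Zeb2 was thus shorter in every SRF library than in every control library. Of the 3884 tested genes whose implied length varied by at least 1.1 times, 7.54% were shorter and 3.94% longer in every SRF library. The log2 fold change of Zeb2 was -0.02 on counts and 0.19 on log2(FPKM + 0.1) with limma (adjusted p = 0.899 with Benjamini-Hochberg adjustment).

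The wider programme was followed with lists of other genes of the transition. Of 22 other mesenchymal genes, 21 were tested, and 17 of these were higher and 4 lower in SRF, with a median log2 fold change of 0.31 against 0.00 for all tested genes. In edgeR's test 0 were called, and 4 higher genes and 1 lower gene had an unadjusted p-value under 0.05. Of all tested genes, 50.3% were higher by sign, and 4.16% were higher and 2.85% lower at that p-value. Mmp14, a membrane-bound collagenase, was at 93.9, 115 and 132 CPM in control and at 164, 209.9 and 165 CPM in SRF mice. It was higher in every SRF mouse, with a log2 fold change of 0.66 (standard error 0.17). DESeq2 called it, just under the cutoff, with an adjusted p-value of 0.0498 (Benjamini-Hochberg). Mmp14 was the 1 gene of the list that DESeq2 called, against 0.803% of all tested genes called higher. Col3a1, a fibrillar collagen, was at 284 ± 33.4 and 443 ± 121 CPM (SD, n = 3 each; log2 fold change 0.64, standard error 0.21). Fn1, which encodes fibronectin, was at 95.8 ± 18.4 and 140.3 ± 29.6 CPM (0.55 on the log2 scale, standard error 0.20), with groups that overlapped. Pdgfrb, a growth factor receptor of pericytes and fibroblasts that was named after its value was seen, had a log2 fold change of 0.43 (standard error 0.17). Thy1 had the highest log2 fold change of the list, 0.67, with a standard error of 0.37. Its level was low and overlapped, at 7.07, 3.36 and 3.34 CPM in control and 7.79, 8.13 and 5.83 CPM in SRF mice. Thy1 is also in the marker list of inner retinal neurons used below. Fap, a fibroblast surface protease, differed in the other direction, at 159 ± 7.15 CPM in control and 116 ± 9.03 CPM in SRF mice (log2 fold change -0.46, standard error 0.11). Its groups did not overlap. DESeq2 gave Fap an adjusted p-value of 0.0252 (Benjamini-Hochberg), and its fold change was too small for a call. The smooth muscle genes Acta2 and Tagln, markers of myofibroblasts, had log2 fold changes of -0.15 and -0.10, and were also named after their values were seen.

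Of 22 other epithelial genes, 18 had enough counts, and 15 of these were lower and 3 higher in SRF, with a median log2 fold change of -0.39. By sign, 50.3% of all tested genes were higher. In edgeR's test 1 gene of the list had an unadjusted p-value under 0.05, lower in SRF, against 2.85% of all tested genes. This was Crb3, a polarity protein of epithelial cells, at 15.9 ± 0.711 CPM in control and 10.2 ± 3.40 CPM in SRF mice (SD, n = 3 each), groups that did not overlap (log2 fold change -0.64, standard error 0.27). Esrp2, an epithelial splicing factor, had the lowest log2 fold change, -0.98 (standard error 0.52), and ran from 1.94 to 6.51 CPM among control mice. Jup had the highest, 0.09. On log2(FPKM + 0.1) with limma the list was even, with 9 genes higher, 9 lower and a median of -0.01, and without control mouse 3 it turned, with 10 of 16 genes higher and a median of 0.06. Markers of ocular surface and ciliary epithelium, which share Krt5 and Krt14 with the list, summed to 285, 1249 and 2539.9 CPM in control mice 1, 2 and 3 and to 1233, 1257 and 727 CPM in SRF mice. Control mouse 3 was thus the library highest in these markers, and their part in the result was not tested.

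Of 12 other transition factors, 10 were tested, with 8 higher and 2 lower, against 50.3% of all tested genes higher. The median log2 fold change was 0.15, which was 0.04 without SRF mouse 2 and 0.30 without SRF mouse 3. Sox4, an HMG box factor that acts downstream of TGF-beta in EMT, was at 23.2, 24.5 and 27.5 CPM in control mice and at 53.3, 52.1 and 31.9 CPM in SRF mice. Every SRF mouse was above the control mice, and the log2 fold change was 0.87 (standard error 0.21). The p-value from edgeR was 0.00460 before and 0.386 after Benjamini-Hochberg adjustment. DESeq2 called Sox4, with an adjusted p-value of 0.0383, and called 0.803% of all tested genes higher. Sox9 had the lowest log2 fold change of these factors, -0.28. Of 9 ligands, receptors and SMADs of TGF-beta signalling, a main inducer of the transition, 8 were higher and 1 lower. With edgeR 0 of the 9 had an unadjusted p-value under 0.05. Their median log2 fold change, 0.15, lay between the quartiles of all tested genes (-0.13 and 0.16), of which 50.3% were higher. Tgfb1 did not overlap between the groups, at 3.50, 2.77 and 3.25 CPM in control and 4.06, 4.96 and 4.71 CPM in SRF mice (log2 fold change 0.53, standard error 0.27). Its level was low, and its unadjusted edgeR p-value was 0.0933. It was the 1 gene of the 9 higher in SRF without overlap, against 6.71% of all tested genes. Smad2 was lowest at -0.07. The 6 partners of the cadherins had log2 fold changes from -0.12 for Ctnna1, which encodes alpha-catenin, to 0.32 for Nectin1.

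**Figure D4:**
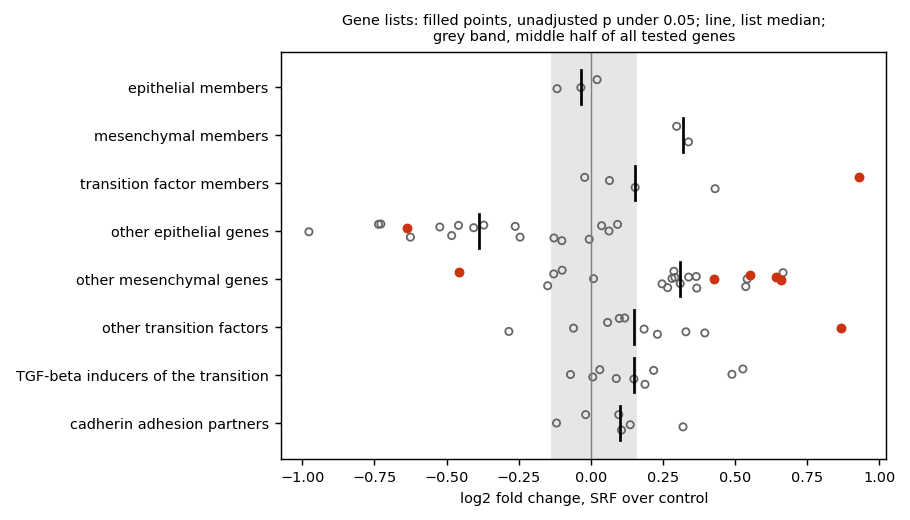
Log2 fold change, SRF over control, of every tested gene in each list, with filled points for an unadjusted edgeR p-value under 0.05, a line at the list median and a grey band between the quartiles of all tested genes (-0.13 and 0.16). The other epithelial genes have a median of -0.39 and the other mesenchymal genes one of 0.31.

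The summed RNA of cell type markers differed between libraries. Apart from the fits that adjusted for photoreceptor RNA or left out libraries, its part in the results above was not tested. Totals over the listed genes ran from 13667310 to 24356023 counts per library. The 10 RPE markers were all detected and summed to between 43683 and 51950 CPM in control and between 29051 and 38842 CPM in SRF mice. Of these 10 genes, 9 were lower in SRF. With edgeR 5 of them were lower at an unadjusted p-value under 0.05, against 2.85% of all tested genes, and 0 were called. DESeq2 called 2 of them lower, Rgr and Lrat, against 0.334% of all tested genes. In bulk tissue fewer cells of a type and less RNA per cell cannot be told apart. The RPE sum did not overlap between the groups, and singly 5 of the 10 RPE markers did not, while Cdh1, Krt8 and Krt18 each overlapped. Rgr, the most abundant RPE marker, weighs most in that sum, at 24327 to 27113 CPM in control and 13990 to 17560 CPM in SRF mice. Without Rgr the sum of the other RPE markers overlapped between the groups. Of all tested genes, 6.43% were lower in SRF without overlap. The 10 macrophage markers summed to between 1219 and 1601 CPM in control and between 2892 and 4261 CPM in SRF mice, and SRF mouse 2 was highest in them as it was in Snai1. Of the 10 macrophage markers, 9 were higher in SRF, against 50.3% of all tested genes. DESeq2 called 3 of them higher, Lyz2, Cd68 and C1qb, against 0.803% of all tested genes, and edgeR called 0. The genes whose profile over the 6 libraries came nearest to that of Snai1, by the mean absolute difference of centred log2 CPM, were Cd53, a tetraspanin of leukocytes (0.106), and Napsa, an aspartic protease (0.107). The part of macrophage RNA in the level of Snai1 was not tested. The genes nearest to Krt18 were Atp5h (0.0151) and Ndufb11 (0.0254), subunits of the mitochondrial ATP synthase and complex I.

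Photoreceptor markers summed to 12471 CPM in control mouse 1 and 12023 CPM in SRF mouse 3 and to between 636 and 1650.4 CPM in the other libraries. Without these 2 libraries the log2 fold change of Snai1 was 0.92, that of Vim 0.69 and that of Twist1 0.57, with adjusted p-values of 0.129, 0.0839 and 0.408 in edgeR's test, and none of the 10 genes was called. Fibroblast markers summed to between 4397 and 10162 CPM in control and between 6734 and 11141 CPM in SRF mice. All 8 were higher in SRF by mean, against 50.3% of all tested genes, and Dpt was near 0 (log2 fold change 0.01). In edgeR's test 2 of the 8 had an unadjusted p-value under 0.05, against 4.16% of all tested genes higher. Col1a1, Col1a2 and Col3a1 are also among the other mesenchymal genes above. Melanocyte markers summed to between 5012 and 6399 CPM in control and between 6548 and 6559 CPM in SRF mice. The sums for Mueller glia, inner retinal neurons, endothelium, pericytes with smooth muscle and Schwann cells overlapped between the groups.

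**Figure D5:**
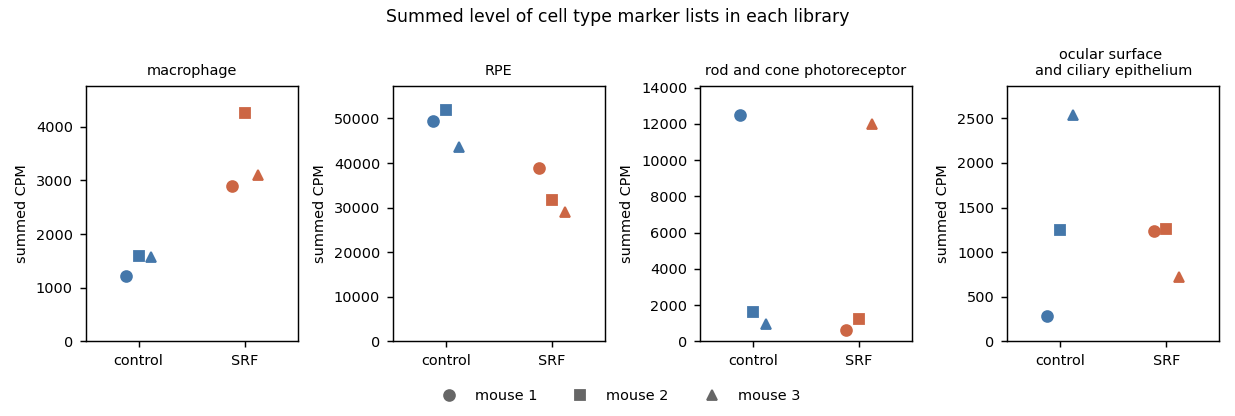
Summed CPM of the marker lists of macrophages, RPE, photoreceptors and ocular surface with ciliary epithelium in each library (linear axes from 0), by group, with circles, squares and triangles for mice 1, 2 and 3. Macrophage and RPE sums separate the groups, the RPE sum only with Rgr included. Photoreceptor sums are high in control mouse 1 and SRF mouse 3, and ocular surface sums are highest in control mouse 3.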

How the data were processed

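RNA-seq of RPE-choroid from 3 control and 3 SRF mice was analysed. The authors filtered reads with FASTP and counted them per gene with StringTie, and their deposited counts were used unscaled. The authors' FPKM values, scaled by transcript length and mapped reads, were deposited beside them. The aligner, genome build and strandedness are not given in the sources used here. Positions were taken from GENCODE M21 on GRCm38, where 15659 of 15663 identifiers had a symbol.

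A gene was tested if more than 50 counts were present in 2 or more libraries, as in the study (13454 genes). The test was the quasi-likelihood test of edgeR 4.0.16 (R 4.3.3, TMM, older form of glmQLFit, group as the only term) with Benjamini-Hochberg adjustment. Standard errors are the absolute log2 fold change over the square root of F, with 6.98 degrees of freedom for the 95% intervals. Their median was 0.19 over all tested genes. Alternatives used DESeq2 1.42.0, limma 3.58.1, other scalings and filters, a GC correction, a replicate block, a photoreceptor covariate and left-out mice. The fits were tested on simulated data.

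Members, lists and tests were chosen with earlier results of these data known. Beside the 10 members, the text names list genes with unadjusted p under 0.05 and an absolute log2 fold change from 0.5 upward, the highest and lowest of each list, and the 2 genes nearest in profile to the highest and the lowest member.

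Each mouse gave 1 library, and same-numbered mice are separate animals whose deviations correlated at -0.48, 0.49 and -0.30, so the numbers do not pair them. P-values set the difference between the groups against the spread between these mice. In edgeR the spread of a gene is moderated by that of all tested genes. One promoter sequence is not reported here.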

Additional observations from a re-analysis of the deposited data

How the results depend on the processing

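Over 19 alternatives none of the 10 genes was called. Snai1, Cdh2, Vim and Twist1 kept their direction in all 19, and the log2 fold change of Snai1 ran from 0.67 without SRF mouse 2 to 1.06 without SRF mouse 1, with adjusted p-values from 0.0767 with DESeq2 to 0.9999 without SRF mouse 2. With 1 mouse left out Vim ran from 0.18 without SRF mouse 2 to 0.59 without SRF mouse 3, Twist1 from 0.21 without SRF mouse 1 to 0.63 without SRF mouse 3, and Cdh2 from 0.11 to 0.50. With the GC correction Snai1 was at 0.79 (adjusted p = 0.497). Fitted with a replicate block Snai1 was at 0.90 (adjusted p = 0.409), 0 genes were called, and 1 library of 6 correlated best with its own number, and the numbers are not a pairing.

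The number of genes called, 0 as reported, was 153 with DESeq2, 153 without control mouse 1 and SRF mouse 3 together (2 mice against 2), 2 with limma on log2(FPKM + 0.1) or log2(FPKM + 1), and 1 each with limma-voom, upper quartile scaling, no filter, filterByExpr, the newer quasi-likelihood form or the photoreceptor covariate. With 1 mouse left out it lay between 0 and 5, the 5 without control mouse 1. The epithelial median minus that of the mesenchymal genes and factors, -0.33, lay between -0.44 and -0.09 with 1 mouse left out.

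Genes near 0 changed sign, and the cause was not tested. Krt8 was at -0.0008 with limma-voom, -0.0381 with the photoreceptor covariate and -0.0826 with the GC correction. Cdh1 was at 0.011 and 0.0096 on log2(FPKM + 0.1) and log2(FPKM + 1), where Zeb2 was at 0.19 and 0.18. Zeb2 was at 0.0816 with the GC correction. Without control mouse 1 and SRF mouse 3 Krt18 was at 0.0754, Zeb1 at -0.0256 and Zeb2 at 0.0609. With 1 mouse left out Cdh1 ran from -0.11 to 0.0679, Krt8 from -0.15 to 0.23, Krt18 from -0.32 to 0.081, Snai2 from -0.0357 to 0.45, Zeb1 from -0.0218 to 0.17 and Zeb2 from -0.11 to 0.06. The list medians, recomputed under the same alternatives after the data had been seen, lay between 0.21 and 0.43 for the other mesenchymal genes and between -0.78 and 0.06 for the other epithelial genes. With 1 mouse left out they ran from 0.0431 to 0.30 for the other transition factors, from 0.0786 to 0.19 for the TGF-beta list and from 0.0544 to 0.17 for the cadherin partners.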
